A study of Mus musculus with 6 samples.

Results

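The mitochondrial protein import machinery was examined in bEnd.3 cells, a mouse endothelial cell line, 24 h after isolated mitochondria were added. It was taken as the protein-coding genes of the deposited table whose names begin with Timm, Tomm or Samm, or with Pam16, Pam18, Grpel, Pmpc, Chchd4, Mipep or Immp. This gave 36 of the 55401 genes listed. A further 3 genes carry such a name but are antisense transcripts or a pseudogene (Tomm6os, Mipepos and Mipep-ps) and were left out, and no gene named Pam18 was found. The control group was 3 libraries of wild-type bEnd.3 cells given culture medium alone, and the mitochondria group was 3 libraries of the same cells given mitochondria from MLO-Y4, an osteocyte-like mouse line, in 100 ul of medium, called treated libraries here. Both lines are of mouse, so a transcript carried over with the organelles could not be told from one of the recipient cells. The labels do not state that replicates came from separate cultures, and p-values therefore measure the spread between these libraries alone, which may be technical.

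Nearly all mitochondrial proteins are made in the cytosol from nuclear genes and are then imported. Precursors are recognised and passed through the outer membrane by the TOM complex. From there the TIM23 complex and its PAM motor take precursors with a cleavable presequence into the matrix, the small TIM chaperones carry hydrophobic proteins to the TIM22 complex, the SAM complex inserts beta-barrel proteins into the outer membrane, and the MIA pathway folds cysteine-rich proteins between the membranes. Peptidases then remove the presequences. The comparison asks whether transcripts for this apparatus differ between cells that did and did not receive foreign mitochondria.

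No import gene was called as different with added mitochondria, and nearly all estimates were close to 0. Of 36 members 33 were expressed enough to test, and 0 of them passed the threshold against 0.164% of all genes, with estimates above 0 for 17 and below 0 for 16. By unadjusted p under 0.05 there were 3, or 9.09% against 13.0% of all genes, and DESeq2 called 1, or 3.03% against 2.79%. The median log2 fold change was 0.0073, against -0.0016 over all genes tested. The small TOM subunit gene Tomm6 was the one member far from 0, at 1.81-fold, and its estimate mirrored that of an overlapping transcript, Gm21981.

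Library totals ran from 65394770 to 73376834 estimated counts. The threshold was an adjusted p under 0.05 in edgeR's quasi-likelihood test over the 12774 genes with a mean of at least 1 FPKM, that is fragments per transcript length and library size. Over all genes 21 were called (0.164%), and 0 with the replicate number as a block. Levels used for differences are CPM, counts scaled to library size with TMM factors. Transcripts of other tissues differed between the groups. With the acinar and hepatocyte marker genes described next left out, edgeR called 7 genes over all genes and 0 import genes. Any further part of such transcripts in the results was not tested. The summed level of 15 listed pancreatic acinar genes, 12 of them tested, was 149 to 242 CPM in control libraries and 53.8 to 59.9 CPM in treated ones. Of these 15 genes, 12 had no counts in any treated library, and all 15 had counts in every control library. Cela1 alone stood at 57.6 to 74.9 CPM in control libraries and 53.7 to 59.3 CPM in treated ones, and the other 14 summed to 91.2 to 167 and 0.122 to 0.6 CPM. The summed level of 10 hepatocyte genes, 5 of them tested, was 41.9 to 55.9 CPM in control libraries, and 2.04, 39.9 and 34.9 CPM in the treated ones, where replicate 1 stood apart. The 12 listed endothelial markers, 3 of them tested, summed to 747 to 798 CPM in control and 810 to 874 CPM in treated libraries. Of the 12, 8 stayed under 1 FPKM in every library and Cldn5 had no counts. The 3 tested ones did not move together. Eng was lower, at 62.8 to 78.3 FPKM in control and 58.3 to 62.2 FPKM in treated libraries. Flt1 was higher, at 21.8 to 28.3 and 30.5 to 36.3 FPKM, as was Tie1, at 4.81 to 5.72 and 6.58 to 7.04 FPKM. The 10 listed osteocyte markers, 4 of them tested, summed to 250 to 431 CPM in control and 294 to 355 CPM in treated libraries. Of the 10, 6 stayed under 1 FPKM in every library, and Dmp1 and Mepe had no counts in any. Highest per length was Col1a1, at 17 to 29.4 FPKM in control and 18.5 to 24.8 FPKM in treated libraries. In bulk RNA, fewer cells of a type and less RNA per cell cannot be told apart, and the source of the acinar and hepatocyte transcripts was not tested.

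Tomm6 encodes one of the small subunits that stabilise the TOM channel. It lies on chromosome 17, from 47686646 to 47688183 on the minus strand (ENSMUSG00000033475, GRCm38). Its coding sequence is printed here because it is contained whole in an annotated transcript of another gene. The first coding exon of 128 bases is in lower case, and the rest, 97 bases with the stop codon, is in capitals. It was read from the GENCODE M21 transcripts and joins the coding parts of chr17:47687192-47688026.
Tomm6 coding sequence: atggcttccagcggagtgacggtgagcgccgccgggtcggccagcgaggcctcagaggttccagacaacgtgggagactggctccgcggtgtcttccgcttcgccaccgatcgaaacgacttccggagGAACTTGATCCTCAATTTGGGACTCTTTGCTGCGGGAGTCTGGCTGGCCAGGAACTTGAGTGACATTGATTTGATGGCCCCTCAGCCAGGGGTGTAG
The same 225 bases occur once, without a break, in the transcript of Gm21981 (ENSMUSG00000079444), a predicted gene on the same strand whose transcript is annotated for nonsense-mediated decay. Of the 1131 bases in Tomm6 exons, 859 are also exon bases of Gm21981. A fragment from these bases could not be assigned to either gene by its sequence alone.

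**Figure D1:**
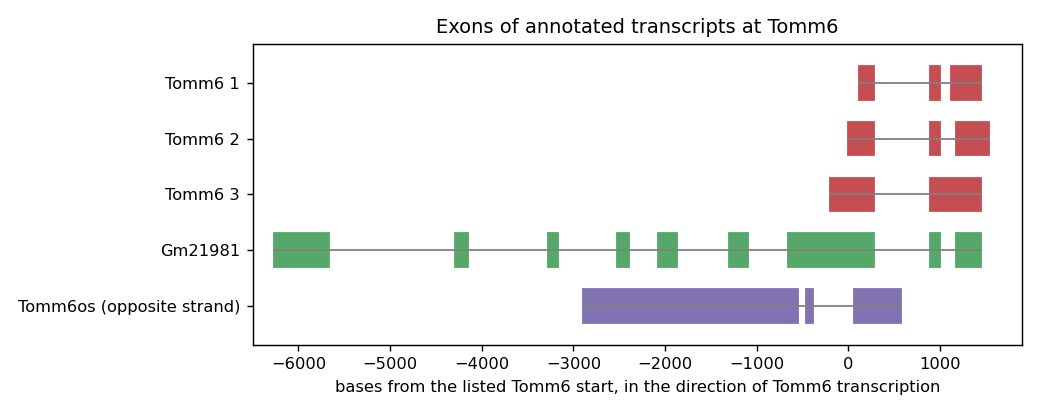
Exons of the 3 annotated Tomm6 transcripts, of Gm21981 and of the antisense transcript Tomm6os, plotted as bases from the listed start of Tomm6 in its direction of transcription. Boxes are exons and lines are introns, and the last 3 exons of Gm21981 cover most of Tomm6.

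Tomm6 stood at 27.2, 29.3 and 27.6 CPM in control libraries and at 48.2, 44.0 and 60.2 CPM in treated libraries. Every treated library lay above every control library, with replicate 3 the highest. The log2 fold change was 0.86 ± 0.12 (SE, n = 3 per group), with an edgeR unadjusted p of 0.000291 and an adjusted p of 0.1005, so it was not called. DESeq2 called it, at an adjusted p of 1.03e-07, where 2.79% of all genes were called and 1.59% were called higher. With the replicate number as a block the edgeR adjusted p was 0.208. A log2 fold change this high or higher was found in 0.822% of genes tested.

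Gm21981, named after its values were seen, had the opposite sign. It stood at 65.5, 74.5 and 74.1 CPM in control and at 51.5, 50.9 and 35.1 CPM in treated libraries. All 3 treated libraries lay below the control libraries, and the library with the highest Tomm6 had the lowest Gm21981. Its log2 fold change was -0.64 ± 0.15 (SE, n = 3 per group; edgeR adjusted p = 0.25, DESeq2 adjusted p = 0.00759). The summed counts of both genes came to 92.7, 103.8 and 101.6 CPM in control and 99.8, 94.9 and 95.3 CPM in treated libraries. These sums overlapped between the groups. Their log2 fold change was -0.040 ± 0.057 (SE, n = 3 per group; edgeR adjusted p = 0.802), with a 95% interval of -0.177 to 0.0975. The share of the sum assigned to Tomm6 was 28.2% ± 1.12 in control libraries and 52.6% ± 9.19 in treated ones (SD, n = 3), without overlap, a description chosen after the values were seen and not tested. Whether this is a shift between transcripts or between assignments was not tested.

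**Figure D2:**
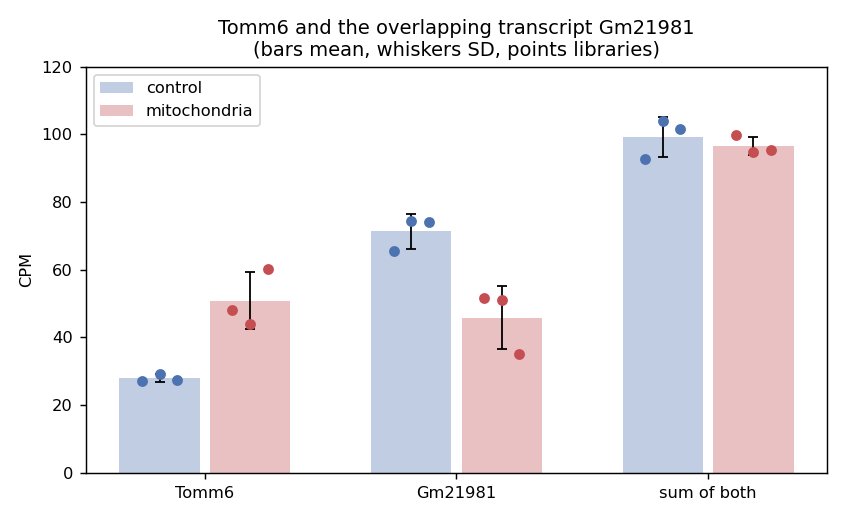
Levels of Tomm6, Gm21981 and their sum in CPM, with bars for the mean, whiskers for the SD and points for the 3 libraries of each group. Tomm6 is higher and Gm21981 lower with mitochondria, while the sums lie between 92.7 and 103.8 CPM in all 6 libraries.

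Other genes at this locus bear on the same reads. Of the 2721 exon bases of Gm21981, 1123 are also in exons of Prickle4, a planar cell polarity gene upstream of Tomm6. Prickle4 was near the limit of detection, at 0.196, 0.135 and 0.18 FPKM in control and 0.354, 0.473 and 0.294 FPKM in treated libraries; its treated values lay above all control values. The antisense transcript Tomm6os had 157, 102 and 121 counts in control and 134, 113 and 145 in treated libraries, with overlapping groups. Usp49, which shares 93 exon bases with Tomm6 on the other strand, varied from 13.6 to 42.6 CPM without separating the groups. The library kit keeps strand information, per the labels, but whether counting used it is not given.

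Estimates for the other TOM subunits lay close to 0. The receptor and organiser gene Tomm22 had the narrowest interval of the 33 genes. It stood at 137.8, 137.1 and 138.4 CPM in control and at 136.7, 143.7 and 139.1 CPM in treated libraries, a log2 fold change of 0.022 with a 95% interval of -0.0706 to 0.114. The presequence receptor Tomm20, the carrier receptor Tomm70a, the channel gene Tomm40 and the small subunits Tomm5 and Tomm7 had estimates of -0.10, 0.042, 0.013, -0.12 and -0.025 on the log2 scale, where adjusted p by edgeR ran from 0.578 to 0.935. The summed FPKM of the complex without Tomm6 was 234.3 ± 10.8 in control and 233.6 ± 4.66 in treated libraries (SD, n = 3), and with Tomm6 it was 256.1 ± 10.3 and 273.5 ± 11.3. Tomm20l, a relative of Tomm20, had no counts in any library, which with a floor of 12 counts, taken as 3 fragments, allows up to 0.165 to 0.185 CPM.

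Tomm40l, a relative of the channel gene, stood at 48.4, 50.4 and 52.9 CPM in control and at 55.1, 54.0 and 55.7 CPM in treated libraries. The groups did not overlap, but the log2 fold change was only 0.12 ± 0.052 (SE, n = 3 per group; edgeR adjusted p = 0.404). On the opposite strand Nr1i3, a nuclear receptor gene, covers 64.3% of the exon bases of Tomm40l, and without strand their reads could not be told apart. Nr1i3 was listed at 30, 56 and 77 counts in control and 90, 137 and 46 in treated libraries. Tomm40l was listed at 3438, 3657 and 3427 counts in control and 3856, 3731 and 3641 in treated libraries. In all, 23 of the 36 members overlap another listed gene, 6 of them on the same strand. Over all tested members 7 of 33 had groups that did not overlap, or 21.2% against 21.4% of all genes tested. They were 5 higher, or 15.2% against 10.8% of all genes, and 2 lower, or 6.06% against 10.6%. At an unadjusted p under 0.05 there were 3 members, or 9.09% against 13.0% of all genes. All 3 were higher, where 6.79% of all genes were higher and 6.24% lower. Over both directions the shares were near or below those of all genes. The shares of higher members alone were above them, but Tomm6 counts in both. Without Tomm6, 2 of 32 members were higher at this unadjusted edgeR p, or 6.25%, and 0 lower. Without it, 4 of 32 were higher and 2 lower with groups that did not overlap.

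Samm50, the channel subunit of the SAM complex, was among those 3. It stood at 174.8, 170.7 and 186.7 CPM in control and at 205.3, 192.7 and 218 CPM in treated libraries. The groups did not overlap, with a log2 fold change of 0.21 ± 0.061 (SE, n = 3 per group), an edgeR unadjusted p of 0.0122 and an adjusted p of 0.28. Timmdc1, which carries a TIM name but encodes an assembly factor of complex I, was the other. It stood at 35.4, 35.3 and 38.5 CPM in control and at 41.4, 42.2 and 43.5 CPM in treated libraries. Its log2 fold change was 0.22 ± 0.059 (SE, n = 3 per group; edgeR unadjusted p = 0.00877, adjusted p = 0.261). DESeq2 called neither, at adjusted p-values of 0.0951 and 0.068.

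**Figure D3:**
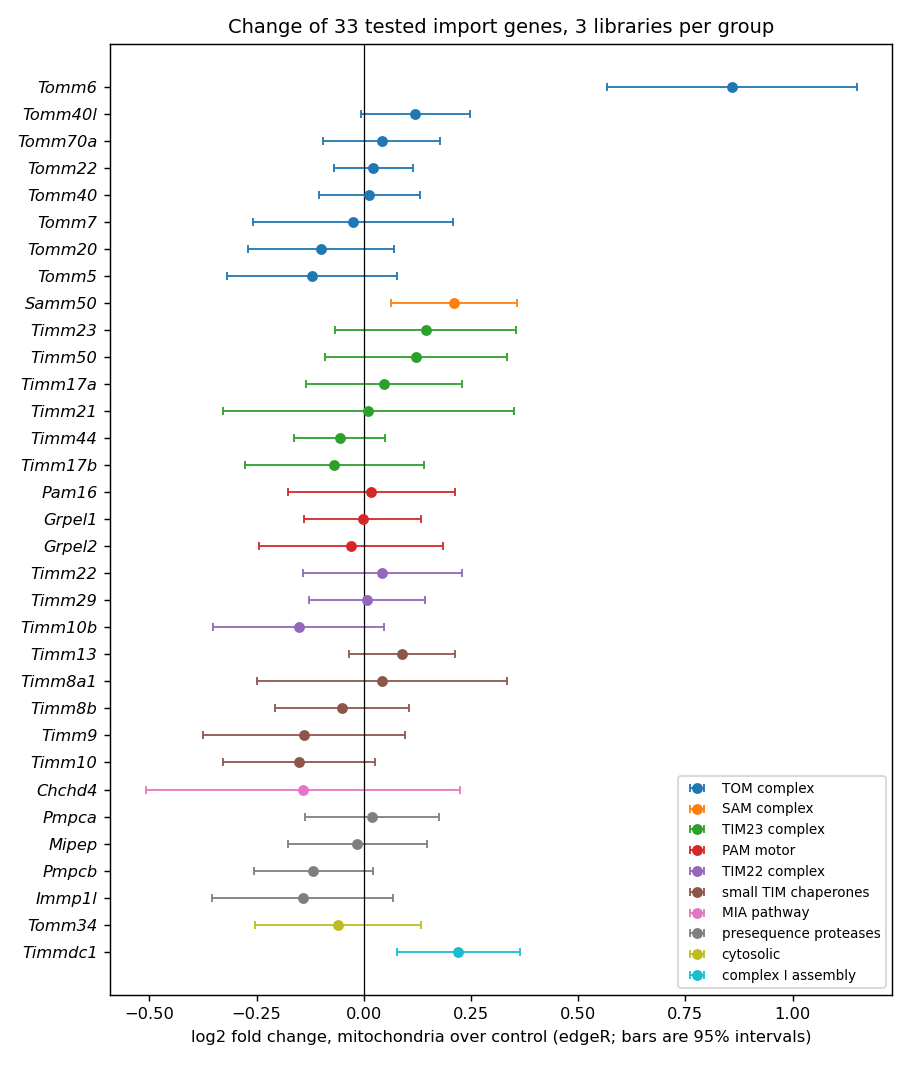
Log2 fold change of the 33 tested import genes in mitochondria over control libraries, grouped by role, with 95% intervals from the edgeR fit. All but Tomm6 lie between -0.25 and 0.25, and the intervals of Tomm6, Samm50 and Timmdc1 do not reach 0.

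Genes of the inner membrane translocase TIM23 gave no call. The channel gene Timm23 stood at 82.7, 87.9 and 79.2 CPM in control and at 100.1, 81.1 and 94.96 CPM in treated libraries. Its groups overlapped because treated replicate 2 lay within the control range (log2 fold change 0.14 ± 0.088, SE, n = 3 per group; edgeR adjusted p = 0.532), and with 1 library left out the estimate ran from 0.080 to 0.23. The precursor receptor Timm50 was lowest in control replicate 3, at 39.6 CPM against 47.1 to 49.98 CPM in the other 5 libraries. Timm44, which tethers the motor to the channel, was at 60.2 to 62.8 CPM in control and 58.9 to 59.8 CPM in treated libraries, without overlap, a log2 fold change of -0.056 (edgeR adjusted p = 0.624). Timm21, which links the TIM23 and TOM complexes, was the lowest tested member at a mean of 1.86 FPKM, and its log2 fold change was 0.010. In the motor, Pam16, a regulator of the import J-proteins, and the nucleotide exchange factors Grpel1 and Grpel2 had log2 fold changes of 0.017, -0.0030 and -0.030.

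Genes that serve carrier proteins and the space between the membranes gave no call either. Timm22, the channel of the carrier translocase, and its partner Timm29 had log2 fold changes of 0.043 and 0.0073. Timm10b, a peripheral subunit of the same complex, stood at 23.4, 22.3 and 21.9 CPM in control and at 22.0, 20.1 and 18.7 CPM in treated libraries. The groups overlapped at a single library (log2 fold change -0.15 ± 0.083, SE, n = 3 per group; edgeR adjusted p = 0.489). Summed with Gm45799, with which it shares 376 exon bases on the same strand, the log2 fold change was -0.16 ± 0.10. Among the small chaperones Timm10 stood at 17.2, 17.3 and 17.6 CPM in control and at 15.9, 14.8 and 16.3 CPM in treated libraries. All 3 treated libraries lay below the control libraries, with a log2 fold change of -0.15 ± 0.073 (SE, n = 3 per group; edgeR adjusted p = 0.444). Timm13 had the opposite sign, at 36.3, 36.6 and 35.2 CPM in control and at 38.5, 37.7 and 38.9 CPM in treated libraries, also without overlap (log2 fold change 0.09 ± 0.051, SE, n = 3 per group; edgeR adjusted p = 0.504). Timm8a2, a relative of Timm8a1, was close to the detection limit, with 4 counts in control replicate 3, 10 in treated replicate 1 and 0 elsewhere.

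Chchd4, the oxidoreductase of the MIA pathway, had the widest interval of the 33 genes. It stood at 31.6, 30.0 and 40.7 CPM in control and at 28.5, 28.1 and 36.0 CPM in treated libraries. Replicate 3 was the highest of each group. The log2 fold change was -0.14, with a 95% interval of -0.508 to 0.223 (edgeR adjusted p = 0.73). Each treated library lay below the control library of the same number, and with the replicate block the interval was -0.295 to 0.0171 (edgeR adjusted p = 0.327).

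Of the presequence peptidases, Pmpcb, the catalytic subunit of the processing peptidase, stood at 107.8, 108.9 and 113.9 CPM in control and at 98.4, 97.5 and 108.9 CPM in treated libraries. Treated replicate 3 lay within the control range (log2 fold change -0.12 ± 0.058, SE, n = 3 per group; edgeR adjusted p = 0.446). Its partner Pmpca and the intermediate peptidase Mipep had log2 fold changes of 0.019 and -0.015. Immp1l, a subunit of the inner membrane peptidase, stood at 20.4, 23.5 and 20.7 CPM in control and at 18.5, 19.6 and 20.5 CPM in treated libraries. Its groups overlapped (log2 fold change -0.14 ± 0.087, SE, n = 3 per group; edgeR adjusted p = 0.533). Its partner Immp2l did not reach the level for testing, with 48, 61 and 64 counts in control and 102, 49 and 49 in treated libraries. Tomm34, a cytosolic cochaperone of Hsp70 and Hsp90 rather than a TOM subunit, had a log2 fold change of -0.060.

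The limits on these comparisons were set by the spread between libraries. The 95% interval of a tested member reached a median of 0.182 to either side on the log2 scale, from 0.0924 for Tomm22 to 0.366 for Chchd4. For 15 of the 33 it stayed within 0.25 of 0, and for Tomm6 and Chchd4 alone it reached 0.5. With the replicate block the median was 0.168, 18 stayed within 0.25 of 0, and 1, Tomm6, reached 0.5. A call asked for more, an adjusted p under 0.05 over 12774 genes, which Tomm6 missed at a log2 fold change of 0.86. A p that missed the threshold does not show that a gene was unchanged. Changes beyond the reach of these intervals could therefore go uncalled too.

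Levels per length spanned a wide range among the members. Timm8b, a small TIM chaperone, was highest at 80.2 ± 4.93 FPKM in control and 78.1 ± 3.24 FPKM in treated libraries (SD, n = 3), followed by Tomm22 at 73.5 ± 0.491 and 75.2 ± 1.92 FPKM. In control libraries these neighbours in the order differed, at 76.6 to 85.9 FPKM for Timm8b and 72.98 to 73.96 FPKM for Tomm22, while with mitochondria their ranges overlapped. Tomm7 and Timm23 came next, at means of 50.9 and 43.4 FPKM over the 6 libraries, and their ranges overlapped. At the low end stood Mipep, Grpel2, Timm9 and Timm21, at means of 3.27, 3.13, 2.49 and 1.86 FPKM, and below the limit for testing Immp2l at 0.423 FPKM.

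**Figure D4:**
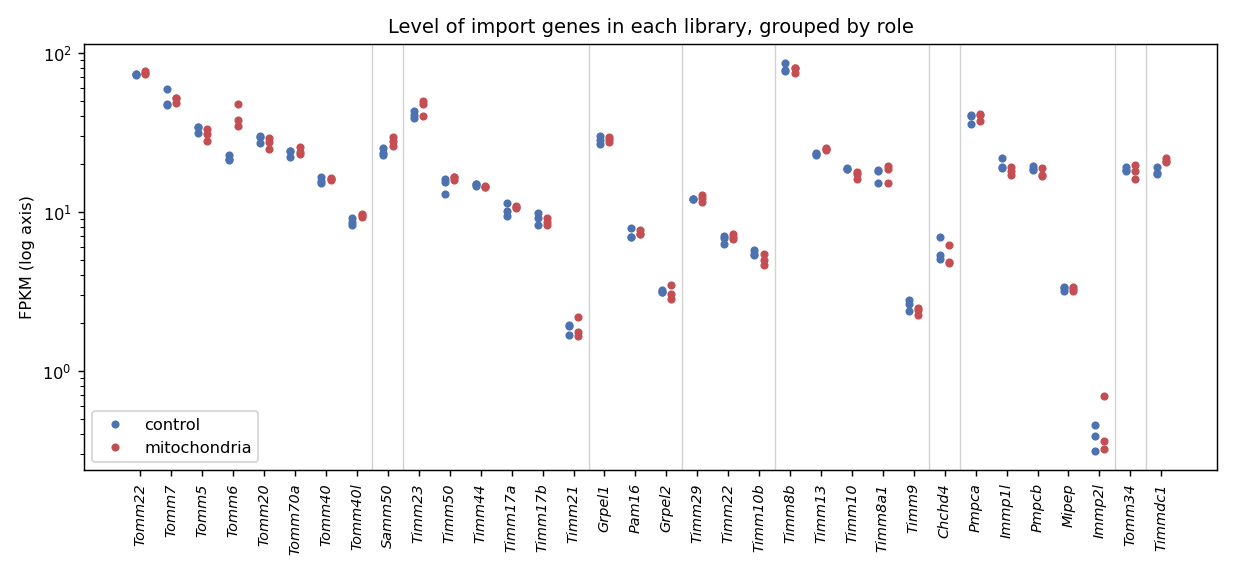
FPKM of import genes on a log axis in each library, ordered by role and then by level, with control and treated libraries in separate colours. Tomm20l and Timm8a2 are left out of the plot, and Tomm6 is the member whose groups stand farthest apart.

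Within pairs of related genes the balance was compared per length, as the ratio of FPKM values. Such a ratio depends on the transcript lengths assumed, and the ratio of counts is given beside it. Grpel1 stood at 28.3, 26.6 and 30.2 FPKM in control and 28.5, 27.6 and 29.5 FPKM in treated libraries. Grpel2 stood at 3.12, 3.11 and 3.21 FPKM in control and 3.45, 2.83 and 3.04 FPKM in treated libraries. Per length Grpel1 exceeded its paralog 9.02 ± 0.423 to 1 in control and 9.25 ± 0.846 to 1 in treated libraries (SD, n = 3), and by counts 4.77 to 1. Timm17a, a channel-associated subunit, stood at 10.1, 9.37 and 11.4 FPKM in control and 10.7, 10.6 and 10.9 FPKM in treated libraries. Its alternative Timm17b stood at 8.23, 9.12 and 9.79 FPKM in control and 9.17, 8.25 and 8.69 FPKM in treated libraries. The per-length ratios were 1.14 ± 0.103 and 1.24 ± 0.0626, while by counts Timm17a exceeded Timm17b 3.67 to 1, and annotated Timm17a transcripts run from 468 to 7280 bases. Timm8a1, whose human counterpart is affected in deafness-dystonia syndrome, stood at 18.02, 15.2 and 18.2 FPKM in control and 19.4, 15.2 and 18.7 FPKM in treated libraries. Timm8b stood at 85.8, 76.6 and 78.2 FPKM in control and 79.8, 74.4 and 80.2 FPKM in treated libraries, which gave per-length ratios of 0.213 ± 0.0176 and 0.227 ± 0.0202 and a ratio by counts of 0.604. Pmpca, the substrate-binding subunit of the processing peptidase, stood at 40.1, 35.9 and 40.6 FPKM in control and 41.3, 37.4 and 40.4 FPKM in treated libraries. It exceeded its partner Pmpcb, at 18.4, 18.6 and 19.5 FPKM in control and 16.9, 16.8 and 18.9 FPKM in treated libraries, with per-length ratios of 2.06 ± 0.126 and 2.27 ± 0.153 and a ratio by counts of 1.80. Timm9 stood at 2.78, 2.36 and 2.64 FPKM in control and 2.40, 2.48 and 2.25 FPKM in treated libraries. Timm10 stood at 18.6, 18.7 and 19.0 FPKM in control and 17.3, 16.0 and 17.8 FPKM in treated libraries. The ratio was 0.138 ± 0.0116 and 0.14 ± 0.0141, although both proteins assemble into a single chaperone complex. By counts the mean ratio of Timm9 to Timm10 was 0.735. Annotated Timm9 transcripts run from 362 to 2564 bases, against 564 and 690 for Timm10, so the per-length ratio depends on which of them was assumed.

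For the 7 pairs the Benjamini-Hochberg adjusted p was 0.7 in each case by an exact 2-sided permutation test, which for 3 against 3 libraries cannot give a raw p below 0.1. Tomm40 stood at 15.7, 15.2 and 16.6 FPKM in control and 16.3, 15.8 and 16.1 FPKM in treated libraries, and Tomm40l at 8.29, 8.62 and 9.08 FPKM in control and 9.504, 9.32 and 9.67 FPKM in treated libraries. Of the 7 ratios only Tomm40 to Tomm40l had groups without overlap, at ratios of 1.89, 1.76 and 1.82 in control and 1.72, 1.69 and 1.67 in treated libraries (exact permutation p = 0.1), and by counts the mean ratio was 1.55. Immp1l stood at 18.8, 21.7 and 19.1 FPKM in control and 17.1, 18.2 and 19.2 FPKM in treated libraries, and Immp2l at 0.313, 0.387 and 0.459 FPKM in control and 0.692, 0.324 and 0.362 FPKM in treated libraries. Their ratio was 52.6 ± 9.75 in control and 44.6 ± 17.3 in treated libraries (SD, n = 3), with treated replicate 1 at 24.7 and the other 5 libraries between 41.6 and 60.2, and by counts the mean ratio was 24.5.

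**Figure D5:**
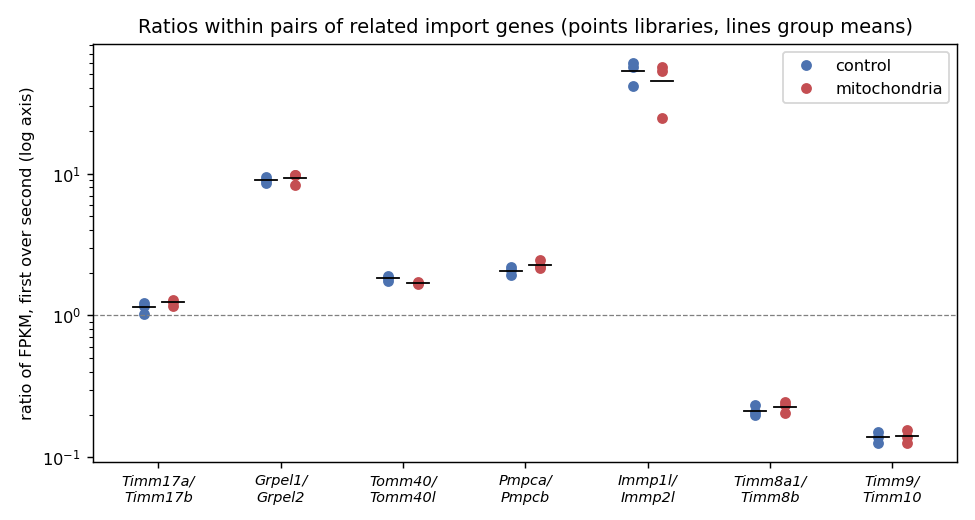
Ratio of FPKM within 7 pairs of related import genes on a log axis, with points for libraries and lines for group means. The groups overlap for every pair but Tomm40 to Tomm40l, and Grpel1, Pmpca and Immp1l exceed their partners in all 6 libraries.

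Promoters of the members were searched for sequence features that the naming rule did not use. RefSeq promoter sequences of GRCm38.p6 were matched to 32 of the 36 members, and the 250 bases before each start were searched on both strands for 9 letter strings. These are variants of 5 motifs, and which of them to describe was settled after their matches were seen. The nuclear respiratory factor NRF1 and the ETS factor GABP are known regulators of nuclear genes for mitochondria. The ETS motif CCGGAAGT was in 6 members, Pmpcb, Timm23, Timm29, Timm8a2, Timmdc1 and Tomm70a, or 18.8%, against 3.23% of 27025 genes. Its shorter form CCGGAAG, which every CCGGAAGT contains, was in 12 members, or 37.5% against 7.83%. The NRF1 motif with its central base free was in 3 members, Chchd4, Pam16 and Tomm20, or 9.38% against 4.23%, and 2 longer or stricter forms of it were in 0, against 0.877% and 0.562%. The ZNF143 motif was in 2 members, Chchd4 and Timm22, or 6.25% against 1.92%. The E-box CACGTG was in 4, or 12.5% against 6.86%, and its longer form TCACGTGA was in 0, against 0.907%. The CCAAT box was in 12 members, and its share of 37.5% was the same as over all genes. These shares describe 32 promoters and were not tested, and a match is a description of letters. The 27025 genes were taken whether expressed here or not, while 33 of the 36 members reached the level for testing. Of the 6 members with CCGGAAGT, Timm8a2 was too low to test, Pmpcb had a log2 fold change below 0 and the other 4 above 0.
The promoters of Timmdc1, which had the smallest p among members with the ETS, NRF1, ZNF143 or E-box letters, and of Tomm20, which holds 2 different motifs, are printed as examples. Capitals mark matches to CCGGAAGT, CACGTG and the NRF1 and ZNF143 motifs, and matches to the shorter ETS form or to CCAAT are left in lower case.
Timmdc1 promoter, chr16:38522664-38522913, minus strand: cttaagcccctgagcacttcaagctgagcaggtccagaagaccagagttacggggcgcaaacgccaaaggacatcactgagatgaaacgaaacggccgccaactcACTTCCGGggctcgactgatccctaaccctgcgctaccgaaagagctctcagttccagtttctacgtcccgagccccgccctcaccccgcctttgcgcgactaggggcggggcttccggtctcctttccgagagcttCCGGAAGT
Tomm20 promoter, chr8:126945922-126946171, minus strand: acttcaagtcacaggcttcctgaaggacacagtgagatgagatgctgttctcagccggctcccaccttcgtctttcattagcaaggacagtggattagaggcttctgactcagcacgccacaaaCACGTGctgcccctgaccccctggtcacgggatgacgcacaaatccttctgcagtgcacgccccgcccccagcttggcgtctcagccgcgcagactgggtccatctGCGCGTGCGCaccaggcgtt
In Timmdc1 both runs of capitals are the ETS motif, the earlier one on the opposite strand. In Tomm20 the earlier run is the E-box and the later one the NRF1 motif on the opposite strand.

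Other genes of the import pathway outside the naming rule, 45 listed by role, were tested in the same fit. They include the matrix chaperones, partners of the SAM complex, the porins, cristae organisers, inner membrane proteases and the cytosolic chaperones that deliver precursors. By edgeR 0 of 45 passed, against 0.164% of all genes, with 20 above and 25 below 0 and a median log2 fold change of -0.012. At an unadjusted p under 0.05 there were 3 higher and 7 lower, or 22.2% against 13.0% of all genes. Over all genes 6.79% were higher and 6.24% lower at this p. DESeq2 called 2 of the 45, Hspa8 and Lonp1, both higher. Over all genes it called 2.79%, and 1.59% as higher. Hspa8, the cytosolic Hsp70 that hands precursors to TOM receptors, stood at 1036, 1002 and 991.7 CPM in control and at 1173, 1345 and 1211 CPM in treated libraries. Its groups did not overlap (log2 fold change 0.30 ± 0.061, SE, n = 3 per group; edgeR adjusted p = 0.215, DESeq2 adjusted p = 0.00453). Lonp1, the matrix protease that degrades damaged proteins, stood at 276, 263.1 and 280.3 CPM in control and at 312.6, 306.1 and 336.7 CPM in treated libraries, again without overlap. Its log2 fold change was 0.22 ± 0.052 (SE, n = 3 per group; edgeR adjusted p = 0.245, DESeq2 adjusted p = 0.0233).

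The next smallest p-values in that list belonged mostly to lower genes. Oxa1l, the insertase for proteins entering the inner membrane from the matrix, stood at 68.8, 66.4 and 66.7 CPM in control and at 59.99, 61.9 and 58.9 CPM in treated libraries (edgeR adjusted p = 0.279). Immt, the core of the cristae-organising MICOS complex, stood at 291, 291.3 and 235.8 CPM in control and at 232.2, 222.9 and 226.2 CPM in treated libraries. Control replicate 3 lay close to the treated libraries, and the edgeR adjusted p was 0.307. The matrix co-chaperonin Hspe1, the outer membrane insertase Mtch2 and the porin Vdac2 had log2 fold changes of -0.15, -0.11 and -0.13, and the SAM-associated J-protein gene Dnajc11 had 0.13, with edgeR adjusted p-values of 0.344 to 0.363. In the whole list 13 of 45 genes had groups that did not overlap, 3 higher and 10 lower, or 28.9% against 21.4% of all genes. Over all genes 10.8% were higher and 10.6% lower without overlap. The lower genes of the list were above that share and the higher ones below it, which was not tested. Hspa9, the Hsp70 that drives the import motor, had a log2 fold change of -0.0079 (edgeR adjusted p = 0.971).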

How the data were processed

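The 3 control and 3 mitochondria libraries were prepared from mRNA and keep strand, per the labels' protocols. GRCm38 is the build in the submitters' processing notes, which also list edgeR, DESeq2, StringTie 2.1.6, HISAT2 2.2.1 and cutadapt 1.9 and give no roles. No annotation release is stated. The authors' FPKM values, per the file headers, correct for transcript length and depth, and a gene without counts is listed at 0.0001. The authors' estimated counts hold whole numbers only. Among those between 1 and 20, multiples of 4 made up 36.6% (25% if all were equally common). On this excess alone a fragment was taken as about 4 counts and the floor for a count of 0 as 12. Counts below 4 also occur, such as 3 for Mipepos in treated replicate 2, so these values are assumptions. Floors and intervals cover counting error or library spread only.

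Counts were tested with edgeR 4.0.16 (R 4.3.3, quasi-likelihood F-test, TMM, no covariate) for 12774 genes with a mean FPKM of at least 1, with Benjamini-Hochberg adjustment over all of them. CPM used the counts of tested genes as library size. Standard errors come from the F statistic and 95% intervals from its degrees of freedom. Alternatives were DESeq2 1.42.0, limma 3.58.1 on log2(FPKM + 1) and log2(FPKM + 0.1), RLE, total-count and upper-quartile scaling, all genes kept or only those averaging 5 FPKM or more, counts divided by 4, the replicate block, leaving out marker genes or each library, and summing overlapping genes on the same strand. The motif search covered 9 strings, all reported. Exon overlaps and the coding sequence came from GENCODE M21 (GRCm38). Replicate numbers are shared by the groups, and deviations of same-numbered libraries correlated at 0.15, 0.171 and 0.266 across genes. Between libraries of different number the correlations ran from -0.223 to 0.0596. Taking the numbers as pairs rests on these data, not on the labels. Pairs were used in the replicate block and the sign-flip test only, and the main test and the permutation test took none. The members, lists and tests were chosen with earlier results of these data known. Values in each library are given for the 10 members with the smallest p and the members of the tested pairs, and for Tomm22, Chchd4 and the neighbours of Tomm6, which were chosen after their values were seen. At most 8 other pathway genes with an unadjusted p under 0.05 are named, with Hspa9 added after its value was seen.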

Additional observations from a re-analysis of the deposited data

How the results depend on the processing

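Over 18 other settings, import genes called by edgeR or limma stayed at 0, and DESeq2 called 1, Tomm6. DESeq2 also called 2 of the other pathway genes and 356 genes in all. Over all genes edgeR called 8 with a mean FPKM of at least 5, 7 without the acinar and hepatocyte marker genes, 0 with the replicate block (16.9% had an unadjusted p under 0.05), and 1 to 27 when a library was left out, with 1 without control replicate 1 and 12 without control replicate 3. Import genes at an unadjusted p under 0.05 numbered 6 with limma at either pseudocount, 1 or 0.1, and 4 with the replicate block, where Pmpcb had an unadjusted p of 0.0386 and an adjusted p of 0.276. Their median log2 fold change was -0.035 to 0.019 without a library. The cause of these shifts was not tested. Tomm6 kept a log2 fold change of 0.72 to 0.95 with any 1 library left out, and was at -0.040 when summed with Gm21981, a setting chosen after seeing the data, as was leaving out Timmdc1 and Tomm34, which left the median at 0.0073. Direction held in every setting for 17 of the 33 members. Of the other 15 besides Tomm6, only Grpel1 reversed outside the settings that leave out a library. It stood at 0.0074 with total-count scaling, 0.000196 with upper-quartile factors, 3.5e-05 with a mean FPKM of at least 5, and 0.011 with limma at both pseudocounts. With a library left out, the log2 fold change ran from -0.26 to 0.0038 for Chchd4, -0.045 to 0.042 for Grpel1, -0.11 to 0.032 for Grpel2, -0.039 to 0.0078 for Mipep, -0.014 to 0.080 for Pam16, -0.035 to 0.060 for Pmpca, -0.016 to 0.13 for Timm17a, -0.12 to 0.092 for Timm21, -0.010 to 0.083 for Timm22, -0.031 to 0.043 for Timm29, -0.038 to 0.14 for Timm8a1, -0.082 to 0.0044 for Timm8b, -0.13 to 0.017 for Tomm34, -0.015 to 0.046 for Tomm40 and -0.079 to 0.086 for Tomm7. Another 10 members kept their sign but moved by over 1.5 times, running from -0.18 to -0.075 for Immp1l, -0.21 to -0.094 for Timm10b, -0.13 to -0.0099 for Timm17b, 0.080 to 0.23 for Timm23, 0.034 to 0.19 for Timm50, -0.20 to -0.084 for Timm9, -0.16 to -0.042 for Tomm20, 0.0020 to 0.038 for Tomm22, -0.18 to -0.059 for Tomm5 and 0.0012 to 0.071 for Tomm70a. The pair ratios gave the same direction by counts, and with the replicate block their exact sign-flip p was 0.25 to 1, 0.25 being the smallest possible. Without a library the log2 difference ran from -0.0072 to 0.112 for Grpel1 to Grpel2, -0.522 to 0.0696 for Immp1l to Immp2l and -0.057 to 0.0874 for Timm9 to Timm10.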
